A study of Mus musculus with 58 samples.

Results

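Saa3 and 9 further genes of the acute-phase response were followed through 58 bulk RNA-seq libraries of sorted mouse adipose stem cells (ASC). The 10 genes, out of 56953 in the count table, were chosen by symbol as rows for Saa3, Saa1, Saa2, Lcn2, Hp, Orm1, Cp, Ptx3, Serpina3n and Serpina3g. The list was drawn up with levels of these genes in the same libraries already known, and Saa3 is described here without a test. All 10 were found by gene identifier, Saa3 for example as ENSMUSG00000040026.9, and 7 had enough reads to be tested.

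Cells were sorted from inguinal white adipose tissue (iWAT), the subcutaneous fat of the groin, of C57BL6/J mice as CD45-/CD31-/CD34+ cells with DPP4 on their surface (ASC2) or without it (ASC1). The mice were castrated males, ovariectomized females and control males and females. Surgery was at 4 weeks of age, and all mice, control mice included, were terminated at 10 weeks after a fast of 4 hours. Of 8 mice per group by the study's design, ASC1 and ASC2 gave 7 and 8 libraries in control males, 8 and 8 in castrated males, 8 and 8 in control females and 3 and 8 in ovariectomized females, with total counts of 106566 to 1421547 per library. The libraries were made by Smart-seq3, a full-length cDNA protocol, and the labels do not say whether libraries that share a letter came from the same mouse. In such bulk samples fewer cells of a type and less RNA per cell cannot be told apart.

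The acute-phase response is the change in secreted proteins that follows infection or injury, set off by inflammatory cytokines through the transcription factors NF-kB, STAT3 and C/EBP. The liver makes most of these proteins, but stromal cells, adipocytes and macrophages make some of them too. The mouse serum amyloid A genes divide this way: Saa1 and Saa2 encode liver proteins carried on high-density lipoprotein, whereas Saa3 is the form made outside the liver, adipose tissue included.

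Libraries differed within their labelled groups before any acute-phase gene was considered. In 27 of the 58, transcripts of sex chromosomes went against the label (fewer than 3 reads of 4 Y-linked genes or at least 20 Xist reads in a library labelled male, or 3 or more Y-linked reads in one labelled female). These were all 8 libraries of castrated ASC1, 4 of 7 and 4 of 8 of control male ASC1 and ASC2, and 5 and 6 of 8 of control female ASC1 and ASC2. The 11 control female libraries against the label held 23 to 55 Y-linked reads, and the 8 castrated ASC2 libraries, which were not against it, 21 to 75. In control males the 4 ASC1 libraries against the label held 5 to 7 Y-linked reads beside 29 to 82 of Xist. Levels of Sult1e1, an enzyme that inactivates estrogen, and of the complement gene C7 went with the label: Sult1e1 was at least 22.6 CPM (read counts scaled to a common library size) and C7 at least 122 CPM in each control male library, and in no other library did Sult1e1 exceed 4.81 CPM or, outside ovariectomized ASC1 (50.0 to 284 CPM), C7 exceed 20.7 CPM. Which of these measures gives the sex of a library was not tested. The paper reports low counts of the Y-linked genes Ddx3y and Eif2s3y in female control samples. It reads them as weak contamination with male mRNA and proposes, from relatively low Sult1e1 and C7 counts, that the samples are clean. Libraries also differed in Tcf21, a transcription factor known from the stroma of visceral fat: 23 libraries held 2 or more Tcf21 reads, and of the other 35 only 1 held any. Wt1, known from visceral fat and mesothelium, was read in all 23 and in 1 of the 35. Tbx15, known from subcutaneous fat, had a median of 2.97 CPM in the 23 and 26.3 CPM in the 35, and Hoxc10 medians of 23.6 and 53.6 CPM. The 23, called Tcf21 libraries below, were 3 of control male ASC1 (replicates B2, C2 and D2), 6 of castrated ASC1, 6 of control female ASC1, 2 of castrated ASC2, 2 of control female ASC2 and 4 of ovariectomized ASC2. Control male ASC2 and ovariectomized ASC1 had none, and 11 of the 23 were also against their sex label. This separation was drawn after the values per library had been seen, and groups are named by their labels throughout.

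The serum amyloid A genes lie near each other on chromosome 7. Their promoters are shown because Saa3 was read at up to 783 CPM while its neighbours were close to 0; the windows are 300 bases around the annotated start, most of them before it, and come from RefSeq on GRCm38.p6, not the build of the counts. Capitals mark the C/EBP motif TTGCNNAA on either strand. They are Saa3 (chr7:46715627-46715926, minus strand), Saa1 (chr7:46742931-46743230, minus strand) and Saa2 (chr7:46751583-46751882, plus strand):
Saa3: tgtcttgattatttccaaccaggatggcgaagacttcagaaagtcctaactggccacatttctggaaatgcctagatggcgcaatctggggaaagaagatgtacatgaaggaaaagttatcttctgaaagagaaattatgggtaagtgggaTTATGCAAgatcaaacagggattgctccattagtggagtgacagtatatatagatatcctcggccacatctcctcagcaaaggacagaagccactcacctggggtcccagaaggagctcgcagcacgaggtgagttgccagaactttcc
Saa1: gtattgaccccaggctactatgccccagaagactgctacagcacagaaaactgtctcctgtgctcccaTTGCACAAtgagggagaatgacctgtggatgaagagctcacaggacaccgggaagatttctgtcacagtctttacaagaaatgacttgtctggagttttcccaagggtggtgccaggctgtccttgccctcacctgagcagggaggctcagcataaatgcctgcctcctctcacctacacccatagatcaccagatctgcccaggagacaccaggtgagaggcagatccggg
Saa2: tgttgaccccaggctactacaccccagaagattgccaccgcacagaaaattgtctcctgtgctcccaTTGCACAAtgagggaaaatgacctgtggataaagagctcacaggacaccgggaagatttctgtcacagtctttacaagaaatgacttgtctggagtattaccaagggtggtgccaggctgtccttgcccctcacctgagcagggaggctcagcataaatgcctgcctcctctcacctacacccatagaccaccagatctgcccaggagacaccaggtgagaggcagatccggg
Each window held 1 such motif, from base -99 in Saa3, -182 in Saa1 and -183 in Saa2, counted from the annotated start, and 10.8% of 32851 promoters of this length hold it. A 10-letter NF-kB motif, which 1.63% of promoters hold on either strand, was in none of these 3 windows and once each in those of Serpina3n and Serpina3g. Saa1 and Saa2 were identical at 208 of 299 positions aligned without gaps (69.6%). Saa2 holds a base that Saa1 lacks, and the positions after it were compared out of register, so this value understates the likeness. Saa3, also aligned without gaps, matched Saa1 at 31.7% and Saa2 at 33.2%. Their transcripts showed the same order: 46.0% of the 31-base words of Saa1 also occur in Saa2, and 98.8% of those of Saa3 occur in no other transcript of the families compared. Reads of Saa1 and Saa2 may therefore have been split between them, but those of Saa3 hardly.

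Saa3 was either high or low in a library, and the level did not follow the labelled group (the plot of Saa3 by library). In control female ASC1 the lowest, median and highest values were 1.99, 474 and 783 CPM, and in castrated ASC1 0.0, 433 and 627 CPM. Control male ASC1 had 0.0, 14.8 and 145 CPM. The 3 ovariectomized ASC1 libraries had 6.82, 9.16 and 0 CPM and lay below the median of all 3 other ASC1 groups. Among ASC2, ovariectomized females had 0.0, 74.8 and 220 CPM, control females 0.0, 3.72 and 441 CPM, castrated males 1.44, 6.47 and 115 CPM, and control males 0.0, 4.5 and 6.44 CPM. All 8 groups overlapped, and 6 of them held both low and high libraries. By mean ± SD the order was control female ASC1 (397 ± 301, n = 8), castrated ASC1 (381 ± 246, n = 8), ovariectomized ASC2 (90.4 ± 94.4, n = 8), control female ASC2 (75.1 ± 155, n = 8), control male ASC1 (55.1 ± 63.1, n = 7), castrated ASC2 (26.3 ± 41.9, n = 8), ovariectomized ASC1 (5.33 ± 4.76, n = 3) and control male ASC2 (3.9 ± 2.46, n = 8). Of the neighbours in this order, castrated ASC1 and ovariectomized ASC2 differed by more than the larger SD, and the other pairs did not.

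**Figure D1:**
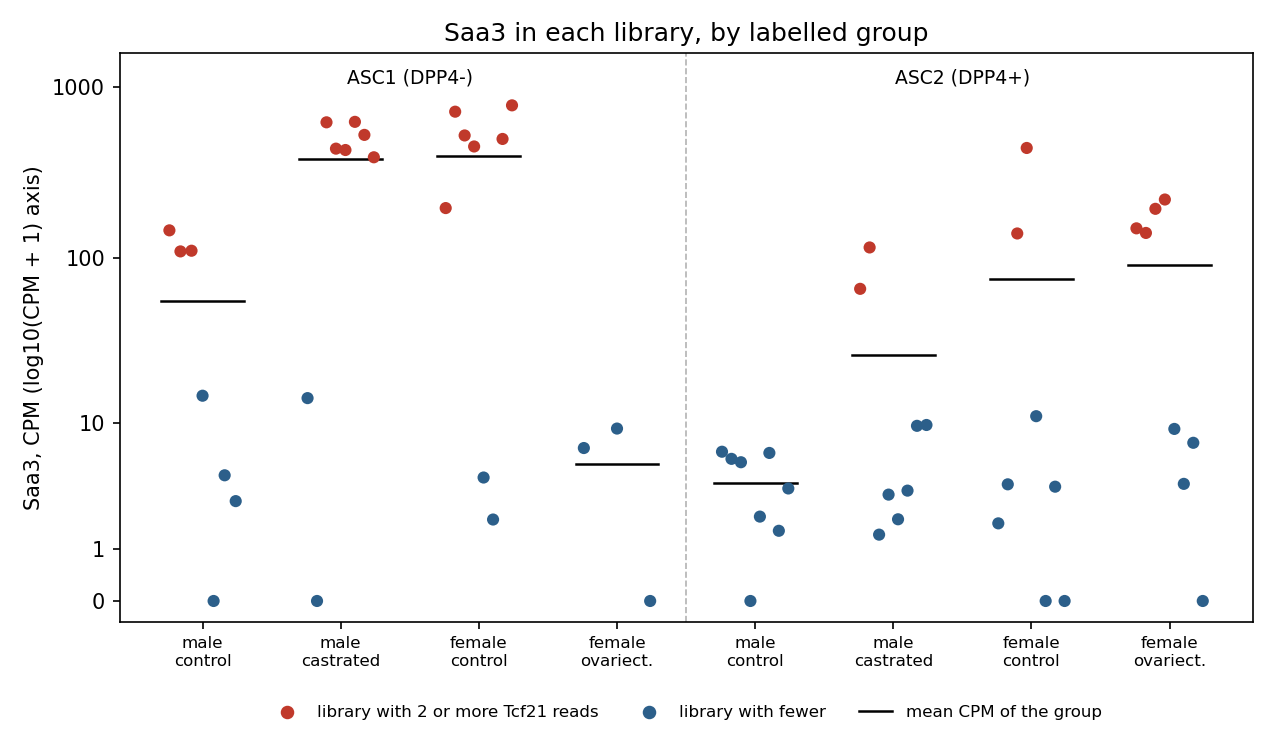
Saa3 in each of the 58 libraries, in CPM on a log10(CPM + 1) axis, by labelled group; points are libraries, red with 2 or more Tcf21 reads and blue with fewer, and bars are group means. The red points lie between 65.5 and 783 CPM and the blue ones between 0.0 and 14.8 CPM in every group.

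The high libraries were the Tcf21 libraries. Saa3 lay between 65.5 and 783 CPM (median 389) in the 23, and between 0.0 and 14.8 CPM (median 3.65) in the other 35, which together held 109 of the 5518 Saa3 reads. This is a description: Tcf21 was also the gene whose levels were most like those of Saa3, with r = 0.941 in log2(CPM + 1) over the 58 libraries among 10467 genes of at least 5 CPM. Next came Wt1 (0.93), Upk1b, a uroplakin (0.923), Asic3, an acid-sensing ion channel (0.906), and Sulf1, an extracellular sulfatase (0.892). With values taken as deviations from group means, 4 of these 5 stayed among the 5 nearest, with r from 0.888 for Upk1b to 0.921 for Tcf21, and Tmem176b (0.875) came in for Sulf1. These values share their libraries and rest on the gap between high and low libraries; the median of Asic3 for example was 108 CPM in the Tcf21 libraries and 2.88 CPM in the others.

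Within the Tcf21 libraries of ASC1, Saa3 differed between the labelled groups. All 6 castrated and 5 of the 6 control female libraries were against their sex label, and none of the 3 control male libraries was. Label and mismatch therefore cannot be told apart there. The 3 control male ASC1 libraries had 145, 109 and 110 CPM (121 ± 20.3, SD). In the 6 castrated ASC1 libraries the lowest, median and highest values were 389, 482 and 627 CPM (505 ± 103), and in the 6 of control female ASC1 196, 510 and 783 CPM (528 ± 209). Control males therefore lay below both and did not overlap either. Among ASC2 the 4 ovariectomized libraries had 149, 140, 194 and 220 CPM, the 2 control female libraries 139 and 441 CPM, and the 2 castrated libraries 65.5 and 115 CPM. In the other libraries the groups had means between 3.13 CPM (control female ASC1, n = 2) and 7.14 CPM (castrated ASC1, n = 2).

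Fitted across all genes, with the log2 fold change ± SE of the edgeR model given as a value without a test, Saa3 was 2.78 ± 0.96 higher in castrated than in control male ASC1. The value was 2.11 ± 0.3 within the Tcf21 libraries and 0.12 ± 1.12 without them. Control male ASC1 was 2.85 ± 0.96 below control female ASC1 (log2 fold change -2.85), with -2.21 ± 0.31 within the Tcf21 libraries and 0.84 ± 1.16 without them. All 6 castrated and 5 of the 6 control female Tcf21 libraries of ASC1 were against their sex label. Leaving out every library against its sex label left no castrated ASC1 library, and gave 1.41 ± 1.29 for control male minus control female ASC1. That fit compared 3 control male libraries, all Tcf21 libraries, with 3 of control females, of which A4 alone was one. With all libraries 3 of 7 control male and 6 of 8 control female ASC1 libraries were Tcf21 libraries. The part of this change in the value was not tested. In ASC2 the changes with castration (2.75 ± 1.26) and between control males and females (-4.21 ± 1.19) were 0.18 ± 0.74 and 0.21 ± 0.74 without the Tcf21 libraries; ovariectomy gave 0.37 ± 0.87, and -0.72 ± 0.33 within the Tcf21 libraries. Between the sorted populations, ASC2 minus ASC1 was -3.74 ± 1.23 in control males, -2.38 ± 0.88 in control females and -3.76 ± 0.97 in castrated males, but 3.95 ± 1.98 in ovariectomized females. Without the Tcf21 libraries these were -0.6 ± 0.76, 0.03 ± 1.23, -0.55 ± 1.05 and 0.09 ± 1.09.

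Saa1 and Saa2 were close to 0 throughout. Saa1 had 24 reads in all, in 11 libraries and at most 6 in one, and Saa2 24 reads in 12 libraries and at most 8. The largest counts of Saa1, 5 and 6 reads, and 3 and 8 reads of Saa2 were in replicates C2 and D2 of control male ASC1, which are Tcf21 libraries with 109 and 110 CPM of Saa3. Of the 24 Saa2 reads 23 were in Tcf21 libraries, and of those of Saa1 19. Per kilobase of exon the mean level over all libraries was 54.2 CPM for Saa3, 0.192 CPM for Saa1 and 0.218 CPM for Saa2. Neither passed the count filter, so neither was tested.

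Of the acute-phase proteins that bind metal or heme, Hp was the one that followed Saa3 (the plot of Saa3 against Hp). Hp encodes haptoglobin, which binds free hemoglobin in plasma, and per kilobase it had the highest mean level of the 10 genes, 80.7 CPM. It lay between 52.9 and 955 CPM in the Tcf21 libraries and between 0.0 and 27.3 CPM in the others. In control female ASC1 the lowest, median and highest values were 2.13, 628 and 955 CPM, in castrated ASC1 3.81, 224 and 248 CPM, and in control male ASC1 8.49, 10.4 and 312 CPM. The 3 ovariectomized ASC1 libraries held no Hp read. Within the Tcf21 libraries of ASC1, Hp was 670 ± 216 CPM in control females (n = 6), 228 ± 15 CPM in castrated males (n = 6) and 252 ± 54.5 CPM in control males (n = 3), so that the mean of castrated males lay within 1 SD of that of control males in Hp and above it in Saa3. With Saa3 it had r = 0.566 over the 23 Tcf21 libraries and -0.0199 over the 35 others.

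**Figure D2:**
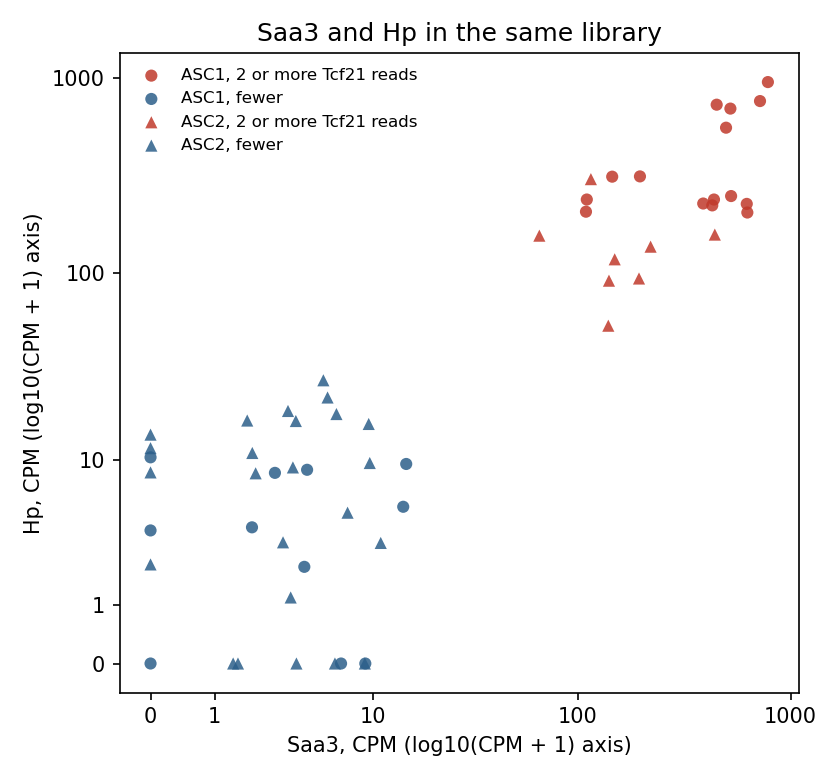
Saa3 against Hp in the same library, both in CPM on log10(CPM + 1) axes; circles are ASC1 and triangles ASC2, red with 2 or more Tcf21 reads and blue with fewer. The red points have at least 65.5 CPM of Saa3 and 52.9 CPM of Hp, and no blue point exceeds 14.8 CPM of Saa3 or 27.3 CPM of Hp.

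Cp did not follow this pattern. It encodes ceruloplasmin, the copper protein that oxidizes iron for export. Its highest values were 116, 114 and 105 CPM in the 3 ovariectomized ASC1 libraries, none of which is a Tcf21 library, and these did not overlap any other group. Control male ASC1 had 18.4, 26.5 and 53.5 CPM as lowest, median and highest values, castrated ASC1 0.0, 9.36 and 23.8 CPM and control female ASC1 0.0, 24.3 and 46.8 CPM. In ASC2 the 2 castrated Tcf21 libraries had 34.9 and 36.8 CPM, and no other ASC2 library exceeded 19 CPM. The ovariectomized ASC1 libraries also stood apart in other ways: fibroblast markers (4 of 4 read) summed to 42900 to 44900 CPM against at most 13900 CPM in any other group, no read fell on 6 mammary epithelium markers, and the median log2 fold change of all genes was -0.34 against control female ASC1 and 0.37 for ovariectomized ASC2 minus ASC1. The part of these differences in the Cp value was not tested.

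Lcn2 and Orm1 were low. Lcn2 encodes lipocalin 2, which withholds iron from bacteria by binding siderophores, and had 134 reads in all. Control female ASC1 had 0.0, 15.7 and 40.9 CPM as lowest, median and highest values, and its 6 Tcf21 libraries held at least 6.53 CPM each. The medians of the 7 other groups were at most 2.21 CPM, that of control male ASC1, whose 3 Tcf21 libraries had 12.7, 5.45 and 3.96 CPM. Castrated ASC1 had at most 1.79 CPM although 6 of its 8 libraries were high in Saa3. The single highest value, 42.7 CPM, was replicate P3 of ovariectomized ASC2, the library with the fewest total counts (106566). Orm1, the plasma carrier orosomucoid, had 6 reads in 5 libraries and was not tested.

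Among the protease inhibitors Serpina3n, a secreted inhibitor of serine proteases, was read in 56 of 58 libraries. It lay between 65.5 and 267 CPM in the Tcf21 libraries and between 0.0 and 102 CPM in the others, so that the ranges overlapped. Control female ASC1 had the widest range, with 29.9, 215 and 267 CPM as lowest, median and highest values. Control male ASC2, with no Tcf21 library, kept to 32.2 to 55.5 CPM. Serpina3g, an intracellular serpin, lay between 17.6 and 118 CPM in the Tcf21 libraries and between 0.0 and 31.8 CPM in the others, with 3.99, 87.6 and 118 CPM in control female ASC1 and no read in ovariectomized ASC1. Of its 31-base words 72.4% occur in no other gene of the families compared, with Serpina3f sharing 16.2% and Serpina3h 15.2%, and 78.5% of those of Serpina3n do, so that some reads of the cluster may have been split.

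Ptx3 is the long pentraxin made by stromal and myeloid cells. It lay between 15.9 and 86.8 CPM (median 36.4) in the Tcf21 libraries and between 0.0 and 52.0 CPM (median 11.5) in the others. Without the Tcf21 libraries, castrated minus control male ASC2 was 1.71 ± 0.5 for Ptx3 and 0.18 ± 0.74 for Saa3. In control male ASC2 Ptx3 had 1.57, 3.03 and 11.8 CPM as lowest, median and highest values, and in castrated ASC2 6.99, 17.4 and 36 CPM. In control female ASC2 it had 11.1, 26.6 and 52 CPM, and in ovariectomized ASC2 0.0, 15.9 and 36 CPM. Control male ASC2 stayed at or below 5.76 CPM in all libraries but replicate H1 (11.8 CPM). In ASC1 the medians were 26.5 CPM in control males, 31.9 CPM in castrated males and 78.7 CPM in control females, and 2 of the 3 ovariectomized libraries held no read.

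**Figure D3:**
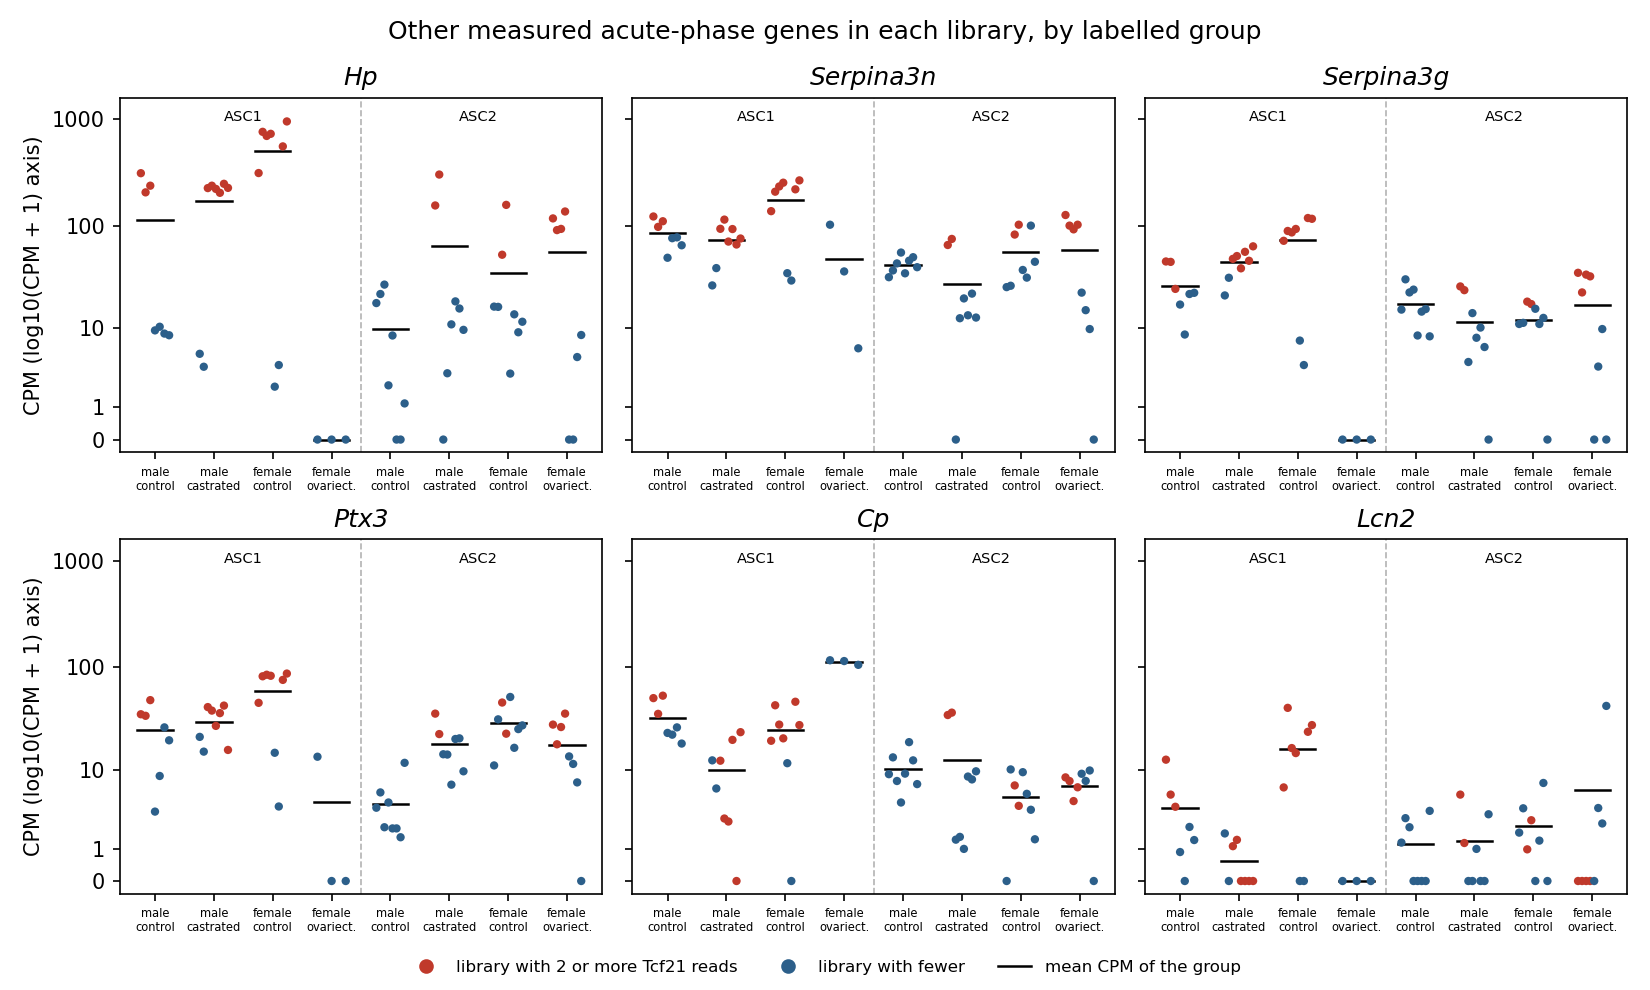
Hp, Serpina3n, Serpina3g, Ptx3, Cp and Lcn2 in each library, in CPM on a log10(CPM + 1) axis, by labelled group; points are libraries, red with 2 or more Tcf21 reads and blue with fewer, and bars are group means. Hp separates the colours as Saa3 does, Cp is highest in the ovariectomized ASC1 libraries (105 to 116 CPM), and the highest Lcn2 mean is that of control female ASC1 (16.3 CPM).

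The comparisons that follow count the 6 tested genes other than Saa3, called at an adjusted p below 0.05 in edgeR's quasi-likelihood test over 12464 genes, and give each count beside the share of all genes called. ASC2 was compared with ASC1 to ask whether the sorted populations differ in acute-phase genes. Among control females 5 of 6 were lower in ASC2 (6.11% of all genes were called): Hp by -3.8 ± 0.92 (log2 fold change ± SE, adjusted p = 0.00439), Serpina3g by -2.54 ± 0.48 (adjusted p = 0.000213), Cp by -2.19 ± 0.52 (adjusted p = 0.00353), Serpina3n by -1.62 ± 0.44 (adjusted p = 0.0134) and Lcn2 by -2.83 ± 0.81 (adjusted p = 0.0201). The Lcn2 call was lost without replicate B4, H4 or E3, with log2 fold changes between -3.27 and -2.51 over all single libraries left out. Without the libraries against their sex label none of the 6 was called (0.754% of all genes), and Hp was 0.37 ± 1.52. That fit left 3 ASC1 libraries, of which A4 alone was a Tcf21 library, and 2 ASC2 libraries, both Tcf21 libraries. It therefore cannot decide whether the calls depend on the mismatch. Among control males 3 of 6 were lower (12.2%), Ptx3 by -2.5 ± 0.51 (adjusted p = 0.000387), Hp by -3.34 ± 1.01 (adjusted p = 0.0203) and Cp by -1.68 ± 0.47 (adjusted p = 0.0123). The Hp call was lost without replicate B2 or D2 (log2 fold changes between -3.71 and -2.94), with limma voom (-2.82) and without the libraries against their sex label (-3.74 ± 1.29, adjusted p = 0.0676). Without the Tcf21 libraries edgeR called none of the 6 in either sex (1.95% and 4.56% of all genes, with 1 and 2 of the 6 at an unadjusted p below 0.05), and Hp was 2.0 ± 1.16 and 0.18 ± 0.7 higher in ASC2. Control male ASC2 has no Tcf21 library and 3 of 7 control male ASC1 libraries are such. Those 3 were the ASC1 libraries left in the control male fit without libraries against their sex label. Within the Tcf21 libraries of control females, 6 of ASC1 and 2 of ASC2, all 6 genes were lower in ASC2 (6.86%), from -1.16 ± 0.29 for Ptx3 to -3.6 ± 0.81 for Lcn2. Of these libraries 5 of the 6 of ASC1 were against their sex label and neither of ASC2 was, so population and sex-chromosome transcripts cannot be told apart there.

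In castrated males Serpina3g was the 1 gene of 6 called, lower in ASC2 by -1.8 ± 0.49 (adjusted p = 0.0109; 9.07% of all genes). Without the Tcf21 libraries none was called (0.586%, 2 of 6 at an unadjusted p below 0.05). Within them Serpina3g was lower (-1.0 ± 0.27) and Cp higher in ASC2 (1.8 ± 0.46, adjusted p = 0.00735; 11.9%). All 8 castrated ASC1 libraries were against their sex label and none of the 8 of castrated ASC2 was, so in castrated males population and sex-chromosome transcripts cannot be told apart. In ovariectomized females Cp was lower in ASC2 by -3.92 ± 0.59 (adjusted p = 3.36e-07) and Serpina3g higher (35.4% of all genes). Serpina3g had 120 reads in ovariectomized ASC2 and none in ASC1, which with a floor of 3 counts over the group is at least 9.4-fold higher; the call was lost without replicate L4. Hp was likewise at least 30.9-fold higher, with 394 reads against none, although its adjusted p was 0.0626. This bound rests on the 4 Tcf21 libraries of ovariectomized ASC2, which held 391 of the 394 Hp reads. Without these libraries Cp stayed lower (-3.75 ± 0.62), Serpina3n was lower too (-1.92 ± 0.59, adjusted p = 0.0114; 29.6%) Serpina3g was 4.2 ± 2.01 (adjusted p = 0.111) and Hp 3.54 ± 2.57 (adjusted p = 0.308).

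Castration and ovariectomy were studied to ask which genes sex hormones control. All control libraries bear the letters A to H and all libraries after surgery I to P, so surgery and letter cannot be told apart. In ASC1 Cp was lower in castrated males, at 10.1 ± 8.63 CPM against 33.0 ± 14.1 CPM in control males (SD, n = 8 and 7), with a log2 fold change of -1.73 ± 0.49 (adjusted p = 0.0386; 2.36% of all genes were called). The call rested on single libraries: leaving out any of 8 of the 15 ended it, with fold changes from -2.02 to -1.56. None of the other 5 was called. All 8 castrated libraries and 4 of the 7 control libraries were against their sex label, so that no fit without such libraries was possible and castration cannot be told apart from the mismatch. Within the Tcf21 libraries (6 castrated, all against their label, and 3 control, none against it) Cp was lower by -2.17 ± 0.41 (adjusted p = 0.000278) and Lcn2 by -3.23 ± 0.85 (adjusted p = 0.00982; 11.9%), whereas Hp was -0.11 ± 0.24 and Ptx3 -0.18 ± 0.26. Without them, with 2 castrated libraries left, no gene of the table was called (0.0%, and none of the 6 at an unadjusted p below 0.05).

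In ASC2 Ptx3 was 18.2 ± 9.08 CPM in castrated and 4.23 ± 3.39 CPM in control males (n = 8 and 8). It was higher by 2.07 ± 0.51 (adjusted p = 0.00699, 6.95% of all genes). Of the 8 control libraries 4 were against their sex label, and no castrated one was. Without the libraries against their label Ptx3 was higher by 2.14 ± 0.59 (adjusted p = 0.0241, 734 of 12464 genes called). Without the 2 Tcf21 libraries Ptx3 was still higher (1.71 ± 0.5, adjusted p = 0.0382) and Serpina3n was lower in castrated ASC2 (-1.6 ± 0.4, adjusted p = 0.0142; 5.01%). Serpina3n values were then 0.0 to 22.3 CPM in 6 castrated libraries and 32.2 to 55.5 CPM in 8 control libraries, which did not overlap. With all libraries Serpina3n was -0.53 ± 0.47 (adjusted p = 0.55), since the 2 castrated Tcf21 libraries had 65.5 and 74.8 CPM.

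Ovariectomized ASC1 was lower than control female ASC1 in Hp, Serpina3g, Lcn2 and Ptx3 and higher in Cp. These were 5 of 6, where 34.8% of all genes were called. Of the 8 control female libraries 5 were against their sex label and 6 were Tcf21 libraries, and none of the 3 ovariectomized ones was either. Ovariectomy therefore cannot be told apart from these differences. Cp was 112 ± 6.06 CPM against 24.8 ± 15.5 CPM (n = 3 and 8), higher by 2.15 ± 0.54 (adjusted p = 0.00138). Without the Tcf21 libraries it was higher by 3.98 ± 0.75 (adjusted p = 9.61e-05, 26.9% of all genes called). Against ovariectomized ASC1 without a read, Hp was at least 208-fold higher in control females, Serpina3g at least 30.4-fold and Lcn2 at least 6.7-fold, a call lost without replicate L4. Ptx3 was lower by -2.86 ± 0.74 (adjusted p = 0.00191). Without the libraries against their sex label, which left 3 control female ASC1 libraries, 3266 of 12464 genes were called, Cp and Serpina3g among them. Hp (-8.8 ± 3.53, adjusted p = 0.0625), Lcn2 (-2.41 ± 2.86, adjusted p = 0.561) and Ptx3 (-1.05 ± 0.82, adjusted p = 0.359) were then not called. Without the Tcf21 libraries 2 control female ASC1 libraries were left, with 2.13 and 3.99 CPM of Hp and no read of Lcn2, and Cp and Serpina3g were the 2 genes called. Between ovariectomized and control female ASC2 none of the 6 was called in edgeR or DESeq2 (2.09% of all genes in edgeR). None of 6 had an unadjusted p below 0.05 in either. The intervals were wide, with a SE of 0.89 for Hp. The count was also 0 within (0.963%) and without (0.907%) the Tcf21 libraries, with 2 and 3 of the 6 at an unadjusted p below 0.05. Of the 8 control female ASC2 libraries 6 were against their sex label, and none of the 8 ovariectomized ones was. Ovariectomy in ASC2 therefore cannot be told apart from the mismatch. Without the libraries against their label 2 control female libraries were left, and none of the 6 was called (3 of 12464 genes).

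Control males were compared with control females to ask about sex differences. In ASC1 none of the 6 was called in edgeR or DESeq2 (0.289% of all genes, with 5 of 6 at an unadjusted p below 0.05 in each). Within the Tcf21 libraries 4 of 6 were lower in control males (3.68%), Serpina3g by -1.4 ± 0.22 (adjusted p = 7.46e-05), Serpina3n by -1.09 ± 0.17 (adjusted p = 0.00012), Hp by -1.49 ± 0.25 (adjusted p = 0.000221) and Ptx3 by -1.01 ± 0.25 (adjusted p = 0.014), with 5 of the 6 female-labelled libraries against their label. Without the Tcf21 libraries none was called (0.0241%, 1 of 6 at an unadjusted p below 0.05) and Serpina3n, Serpina3g and Hp were 1.02 ± 0.58, 1.53 ± 0.81 and 1.64 ± 1.22 higher in control males. In ASC2 Ptx3 was the 1 gene called, at 4.23 ± 3.39 CPM in control males and 29.2 ± 13.9 CPM in control females (-2.73 ± 0.49, adjusted p = 0.000197; 6.49% of all genes). It was -2.65 ± 0.47 without the Tcf21 libraries (adjusted p = 0.00115, 4.07% of all genes). Without the libraries against their sex label it was -3.04 ± 0.69 (adjusted p = 0.0126, 2.41%). That fit left 4 control male libraries, none a Tcf21 library, and 2 of control females, both Tcf21 libraries. Label and Tcf21 reads therefore cannot be told apart there.

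**Figure D4:**
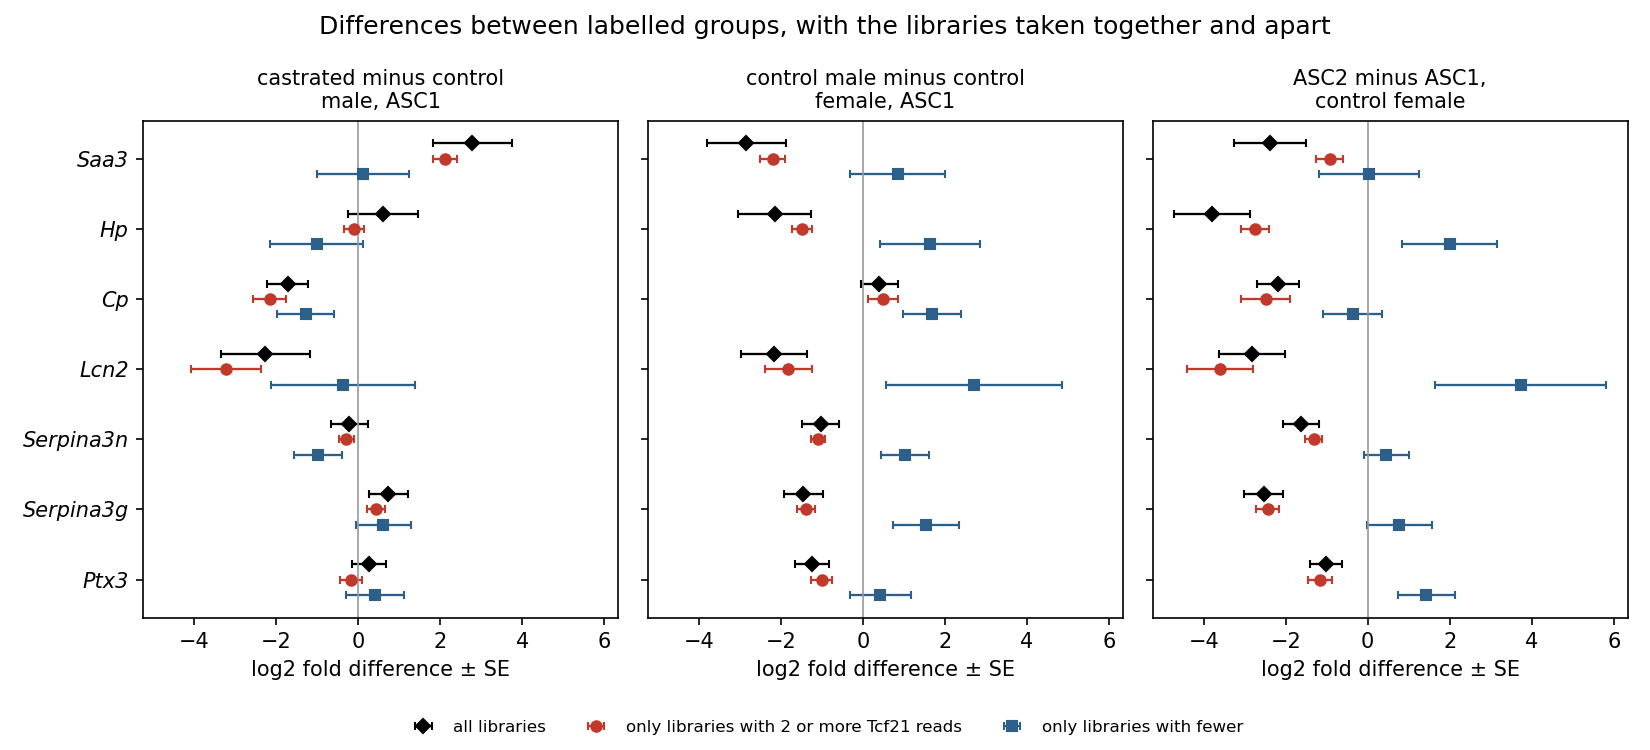
Log2 fold differences ± SE from edgeR for Saa3 and the 6 other tested genes in 3 comparisons, with all libraries (black), only those with 2 or more Tcf21 reads (red) and only those with fewer (blue). In castrated minus control male ASC1 the red values run from -3.23 for Lcn2 to 2.11 for Saa3, and in control male minus control female ASC1 and ASC2 minus ASC1 of control females 6 and 7 of the 7 red values are below 0 and 7 and 6 of the 7 blue values above.

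The castration effect did not pass the threshold for a difference between ASC2 and ASC1 in any of the 6 genes by edgeR or DESeq2 (2.41% of all genes, 2 of 6 at an unadjusted p below 0.05; 0.0% without the Tcf21 libraries, 1 of 6). Castration and ovariectomy differed in ASC2 in 1 gene, Ptx3, by 2.62 ± 0.66 on the log2 scale (adjusted p = 0.041; 0.61% of all genes; lost when any of 14 of the 32 libraries was left out) and by 3.17 ± 0.79 without the Tcf21 libraries (adjusted p = 0.039; 0.682%).

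In all, 6 further lists of the acute-phase system were described in the same fits. Of 18 inducers and receptors 15 were tested. In control females, where 6.11% of all genes were called, 3 were lower in ASC2, Osmr, the oncostatin M receptor (-1.19 ± 0.21), its partner Il6st (-0.84 ± 0.21) and Tnfrsf1a, a TNF receptor (-0.71 ± 0.2), and none was higher. None of the 15 was called without the Tcf21 libraries (1.95% of all genes, Osmr -0.48 ± 0.32), and 5 were within them (6.86%). Within them 5 of the 6 ASC1 libraries and neither of the 2 ASC2 libraries were against their sex label. None of the 15 was called with castration (6.95% of all genes) or ovariectomy (2.09%) in ASC2, or with castration in ASC1 (2.36%). With castration 1 of the 15 was called in ASC2 without the Tcf21 libraries (5.01%) and 2 in ASC1 within them (11.9%). In ovariectomized against control female ASC1, where 34.8% of all genes were called, 3 of 15 were higher and 4 lower. Il6 (27.8 against 4.23 CPM, 2.63 ± 0.77) and Tlr2 (2.78 ± 0.58) were among the higher, and Il11 (0.0 against 8.39 CPM, -5.64 ± 2.0) among the lower. Of 17 tested genes of transcription and feedback, Zfp36, which destabilizes cytokine mRNA, was higher in ASC2 than ASC1 in control males (2.29 ± 0.33), control females (2.59 ± 0.33) and castrated males (1.99 ± 0.35). Zfp36 was lower in castrated (-1.42 ± 0.31) and ovariectomized (-1.13 ± 0.31) than in control ASC2. The second was not called without the Tcf21 libraries (-0.83 ± 0.42, adjusted p = 0.498). Of the control ASC2 libraries 4 of 8 male and 6 of 8 female ones were against their sex label. No castrated or ovariectomized ASC2 library was, and the part of this difference was not tested. Tsc22d3, a glucocorticoid-induced gene, was 372 CPM in ovariectomized ASC1 and 41.3 CPM in control female ASC1 (3.15 ± 0.28). In that comparison 4 of the 17 were higher and 4 lower, Zc3h12a (-3.5 ± 0.7) and Relb (-3.38 ± 0.83) among the lower.

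Of 30 other acute-phase proteins 17 were tested. The complement gene C3 was 1680 CPM in ASC2 and 284 CPM in ASC1 of control males (2.56 ± 0.53). C4b, another complement gene, was 62.8 CPM in castrated and 344 CPM in control male ASC2 (-2.46 ± 0.33). In females it was 83.1 CPM in ovariectomized and 601 CPM in control ASC2 (-2.88 ± 0.34). Part of the control ASC2 libraries and none of those after surgery were against their sex label, as stated above. The part of this in the C4b values was not tested. In castrated against control male ASC1 (2.36% of all genes called) 3 of 17 were lower, Steap4, a metalloreductase (-1.83 ± 0.32), the interleukin-1 antagonist Il1rn (-1.77 ± 0.4) and C4b (-1.67 ± 0.33), and none was higher. Without the Tcf21 libraries 2 castrated libraries were left and no gene of the table was called (0.0%). That fit therefore cannot decide about the 17 (Steap4 -1.87 ± 0.54). Within the Tcf21 libraries 12 of the 17 were called (11.9% of all genes). There all 6 castrated libraries and none of the 3 control libraries were against their sex label, so castration cannot be told apart from the mismatch. The median of the 17 was -0.53 and that of all genes -0.01. Ovariectomized ASC1 had 1020 CPM of Steap4 against 74.2 CPM in control females. In that comparison 5 of the 17 were higher and 8 lower (34.8% of all genes called). Tfrc (-4.89 ± 0.79) and Il1rn (-4.57 ± 0.97) were among the lower. Of 7 proteins that fall in the acute phase 2 were tested; Trf, transferrin, was 34.6 ± 9.84 CPM in castrated and 314 ± 348 CPM in control male ASC1 (-3.17 ± 0.66), and -0.1 ± 0.42 without the Tcf21 libraries.

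Of 9 further genes of the Serpina3 cluster 2 were tested. Serpina3c went opposite to Serpina3g in control females, at 55.1 CPM in ASC2 and 1.49 CPM in ASC1 (4.89 ± 0.48, adjusted p = 2.34e-11), and was lower in castrated than control males in ASC1 (-2.41 ± 0.43) and ASC2 (-1.77 ± 0.32). Without the Tcf21 libraries the value in ASC1 was -2.26 ± 0.79, in a fit where no gene of the table was called (0.0%). The call in ASC2 was kept (-2.01 ± 0.37). Of 10 receptors and partners of the proteins 5 were tested; Tnfaip6, which joins Ptx3 in the hyaluronan matrix, was 211 CPM in control male ASC2 and 28.6 CPM in ASC1 (2.86 ± 0.36), and was lower with castration (-1.15 ± 0.31) and ovariectomy (-1.44 ± 0.33) in ASC2. Neither Tnfaip6 call with surgery held without the Tcf21 libraries (-0.99 ± 0.35, adjusted p = 0.0978, and -1.14 ± 0.45, adjusted p = 0.3). The mismatch with the sex label among control ASC2 libraries applies to both.

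Markers of other cells were read beside the same libraries. The 5 macrophage markers (Cd68, Cd14, Adgre1, Csf1r and Cd163) were all read in both kinds of library and summed to 96.7 to 777 CPM (median 205) in the Tcf21 libraries and 20.5 to 505 CPM (median 126) in the others. The 5 mesothelium markers (Upk3b, Msln, Lrrn4, Krt19 and Wt1) summed to 19.6 to 156 CPM (median 71) and 0.0 to 213 CPM (median 26.6). These sums overlapped, but Upk3b and Wt1 taken singly went with the Tcf21 libraries. Upk3b was read in 22 of the 23 Tcf21 libraries and in 7 of the 35 others, where it did not exceed 3.41 CPM. Wt1 was read in all 23 and in 1 of the 35. Of 5 neutrophil markers 4 and 5 were read, at no more than 9.48 and 12.3 CPM in sum, with Retnlg at 0 in the Tcf21 libraries, and the 5 adipocyte markers summed to medians of 8.12 and 8.66 CPM. For the 6 mammary epithelium markers the medians were 39.2 and 24 CPM, and for the 4 endothelium markers 58.5 and 38.3 CPM. The fibroblast markers had medians of 6720 and 6500 CPM, and the 5 ASC1 markers of 300 and 202 CPM. The ASC2 markers, Dpp4 of the sort among them, summed to at least 506 CPM in each ASC2 group and at most 417 CPM in each ASC1 group. Dpp4 chose the cells, so this is no finding. The part of these markers in the levels of Saa3 and Hp was not tested.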

How the data were processed

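Sorted ASC of 58 libraries were measured by Smart-seq3. Per the study's methods the authors trimmed adapters with NGmerge, quantified reads with Salmon 1.9.0 on Gencode vM32, added reads with and without molecular identifiers, kept libraries in which 8500 genes or more were detected, and deposited estimated counts that were not normalized; 15% of those above 0 were not whole, and counts were rounded. STAR 2.7.10a, FastQC 0.11.9 and MultiQC 1.12 served quality control.

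CPM (counts scaled to library size) used TMM factors. The 12464 of 56953 genes that reached 5 reads in over 3 libraries were fitted with edgeR 4.0.16 in R 4.3.3 (quasi-likelihood test, 8 groups, Benjamini-Hochberg adjustment, threshold 0.05), with DESeq2 1.42.0 and limma 3.58.1 as alternatives, and the steps were tested on simulated data. Values of a single library carry counting error, with total counts of 106566 to 1421547. The labels do not say that libraries came from separate mice, so p-values measure the spread between libraries. No pair of libraries within a group agreed within sampling noise (lowest chi-square per gene 1.44).

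The members, the companion lists, named by their largest called changes, and the marker lists were chosen with earlier results of these data known. The separation by 2 or more Tcf21 reads was made after the values were seen. Deviations of libraries that share a letter had r from -0.169 to 0.283, over 0.1 for every letter in no comparison and for 5 of 7 letters at most, so letters were not taken as pairs. The result of 1 marker list is not reported here.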

Additional observations from a re-analysis of the deposited data

Results flagged for a closer look

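Of 49 sets of one gene in one group of 4 to 10 libraries, 6 had a library apart from the rest by Dixon's test at the 95% level, which chance gives in about 1 of 20. In control female ASC2 replicate D3 was high in Saa3 (441 CPM) and in Hp (157 CPM), and replicate H3 held no Serpina3g read (0.0 CPM). Lcn2 was high in replicate B2 of control male ASC1 (12.7 CPM, 5 reads) and in replicate P3 of ovariectomized ASC2 (42.7 CPM, 5 reads of 106566). Ptx3 was high in replicate H1 of control male ASC2 (11.8 CPM). D3 and B2 are Tcf21 libraries and the other 3 are not. The effects of castration and ovariectomy on Ptx3 in ASC2 differed by 2.62 on the log2 scale in the test of the difference itself.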

How the results depend on the processing

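Counts of called genes, of 6, changed most with the Tcf21 libraries, an alternative chosen after the data were seen. Without them the counts were 0 for ASC2 against ASC1 in control males (3 with all libraries), control females (5) and castrated males (1), 0 for castration in ASC1 (1), 2 for castration in ASC2 (1) and 2 for ovariectomy in ASC1 (5). ASC2 minus ASC1 then turned to 0.18 for Hp in control males and, in control females, to 3.73 for Lcn2, 2.0 for Hp, 0.45 for Serpina3n and 0.77 for Serpina3g. Within them the counts were 2 for ASC2 against ASC1 in castrated males, 2 for castration in ASC1 and 4 for control males against females in ASC1 (0). Without libraries against their sex label they were 2 in control males and 0 in control females. They were 2 for ovariectomy in ASC1 and 0 for castration against ovariectomy (1). Lcn2, Hp and Serpina3n then turned to 1.02, 0.37 and 0.68 in control females. That control female fit held 3 ASC1 libraries, A4 alone of them a Tcf21 library, and 2 ASC2 libraries, both Tcf21 libraries. Without libraries under 300000 total counts the counts of called genes were 0 for castrated males and 0 for castration in ASC1. They were 3 for ovariectomy in ASC1 and 0 for castration against ovariectomy. limma voom gave 2 in control males, 3 in control females, 2 in castrated males, 1 in ovariectomized females (2), 3 for ovariectomy in ASC1 and 0 for castration against ovariectomy. In castrated males library size alone, no count filter and DESeq2 each gave 2. No count filter also gave 2 for castration in ASC2, 2 for control males against females in ASC1 and 1 for the castration effect between ASC2 and ASC1 (0). The cause of these changes was not tested. A replicate block on the shared letter gave 1 for control males against females in ASC1 and 4, 5, 1 and 2 for ASC2 against ASC1 in control males, control females, castrated males and ovariectomized females, where the block called Hp and Cp and lost Serpina3g. Leaving out 1 library gave 2 to 3, 4 to 6, 1 to 2 and 1 to 3 in the same order, 0 to 1 for castration in ASC1, 0 to 1 for the castration effect between ASC2 and ASC1 and 0 to 1 for castration against ovariectomy. Of 60 two-sided exact permutation tests of single genes 25 had an unadjusted p under 0.05. Depth limits Lcn2, Saa1, Saa2 and Orm1, which had 134, 24, 24 and 6 reads in all.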
